A study of Homo sapiens with 2 samples.

Results

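NANOG, GDF3, DPPA3 and SLC2A3 lie near each other on the short arm of human chromosome 12, with other genes between them. These 4 genes, of 19122 protein-coding genes on the autosomes in the gene table, were followed through the stretch that joins them, extended by 20 kb on each side. The stretch runs from 7669784 to 7956187 of chromosome 12 (hg38), is 286 kb long, and holds 8 of the 46980 peaks in the authors' list. The genes were picked by name and the borders by distance, without a threshold on a measured value.

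The cells were H9, an established line of human embryonic stem cells, grown undifferentiated on Matrigel in mTeSR medium, without a treatment. There was 1 group with 2 replicates, and the name of the peak list places it at 0 hours. Open chromatin and DNA methylation were read from the same fragments by ATAC-Me, in which a transposase inserts adapters into accessible DNA before the unmethylated cytosines are converted. The labels do not tell whether each replicate was its own culture, and their spread may therefore be technical.

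NANOG is a homeodomain transcription factor that, with OCT4 and SOX2, holds stem cells in the undifferentiated state. GDF3 is a secreted ligand of the TGF-beta superfamily, DPPA3 (also called STELLA) is a chromatin protein of germ cells and early embryos that protects DNA methylation states, and SLC2A3 (GLUT3) is a glucose transporter of the cell membrane. In mammals, methylation of CpG cytosines at a gene's start usually goes with a silent gene, and starts rich in CpGs are usually free of it. The starts of all 4 genes are poor in CpGs. Within 500 bp of the start there were 15 CpGs at NANOG, 16 at DPPA3, 16 at SLC2A3 and 18 at GDF3, against a median of 65 over 15101 protein-coding starts.

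The 250 bases that end just before each annotated start are shown for the members that RefSeq's promoter table (GRCh38.p14) holds. The CpGs in capitals are among those that report methylation at these promoters. They are written 5′ to 3′ on the strand of the gene. The NANOG sequence is chr12:7789152-7789401 on the plus strand, DPPA3 is chr12:7711183-7711432 on the plus strand, and GDF3 is chr12:7695776-7696025 on the minus strand.
NANOG: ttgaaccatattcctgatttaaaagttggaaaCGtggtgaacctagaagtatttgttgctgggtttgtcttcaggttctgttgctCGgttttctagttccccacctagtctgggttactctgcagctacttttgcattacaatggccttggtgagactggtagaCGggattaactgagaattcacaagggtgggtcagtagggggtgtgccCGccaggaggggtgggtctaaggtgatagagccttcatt
DPPA3: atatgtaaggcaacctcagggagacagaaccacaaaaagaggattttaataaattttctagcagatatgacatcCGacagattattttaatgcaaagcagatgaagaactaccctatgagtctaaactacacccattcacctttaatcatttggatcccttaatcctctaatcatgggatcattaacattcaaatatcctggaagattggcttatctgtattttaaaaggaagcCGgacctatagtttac
GDF3: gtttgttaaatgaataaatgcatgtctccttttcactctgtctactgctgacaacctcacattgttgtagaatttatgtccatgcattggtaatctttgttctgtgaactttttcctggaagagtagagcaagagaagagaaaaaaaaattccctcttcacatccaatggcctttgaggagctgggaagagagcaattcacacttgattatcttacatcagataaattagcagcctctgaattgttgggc
NANOG has 4 whole CpGs in this window, DPPA3 has 2 and GDF3 has 0. The last printed base of DPPA3 is the C of a further CpG, 1 bp before the start. It had 2 of 2 reads methylated in replicate 2. The methylation of the GDF3 start rests only on CpGs outside the printed bases. Most of the 15 CpGs within 500 bp of the NANOG start and of the 16 at DPPA3 lie outside them too. A script also searched the promoter table's windows, which run to 50 bases past the start, on both strands for TTTGCAT and ACAATG, the parts bound by OCT4 and SOX2 in a joint site, and for a joint form in which they follow each other with 1 free base between. The parts overlap the joint form, which was chosen with the known NANOG element in mind. The joint form, tttgcattacaatg in NANOG, begins 120 bases before the NANOG start, on the strand of the gene, and is found in 3 of 35116 promoter windows of the same length (0.00854%). TTTGCAT alone was present in 4.46% of the windows and also occurs in DPPA3 on the opposite strand, from 161 bases before the start. ACAATG was present in 10.8% of the windows and occurs in GDF3 on the opposite strand, from 191 bases before the start. A match is a description of the letters and not a measured binding site.

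Over the autosomes the replicates held 28475863 and 51406146 CpG reads, and reads covered 31.6% and 58.97% of the listed CpGs. Within the stretch they held 2651 and 6695 reads over 5154 CpGs, or 0.514 and 1.30 reads per listed CpG, so values outside peaks rest on few reads. As a check of the cell label, starts of pluripotency markers were set beside those of other cell types. Of the 8 stem cell markers 4 had a start in the table, and all 4 had a peak: SOX2, NANOG, L1TD1 and DNMT3B. NANOG is itself a gene followed here, and the DNMT3B start was 46.8% methylated. Peaks were absent at the 3 blood, 2 epithelial and 2 liver marker starts found, while 3 of 4 neural starts had one. Over all protein-coding starts 61.8% had one. The stem cell marker starts held 11 to 64 CpGs within 500 bp, and the blood, epithelial and liver ones 1 to 32. CpG number was therefore not separated from cell type, and the check of the label is weak. None of the 6 fibroblast markers had a start in the table. Reads were counted once for each CpG they span, so the Wilson 95% intervals given here cover counting error only and are too narrow, and the p-values of tests on reads are too small.

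NANOG and SLC2A3 were open and unmethylated at their starts, and GDF3 and DPPA3 were not. Of the 4 starts, 2 had a peak within 500 bp, where 61.8% of all protein-coding starts did. At NANOG, 0 of 64 reads were methylated in replicate 1 (0%, interval 0% to 5.66%) and 2 of 68 in replicate 2 (2.94%, interval 0.810% to 10.1%), a mean of 1.47% ± 2.08 (SD, n = 2). At SLC2A3, 0 of 87 reads were methylated in replicate 1 (0%, interval 0% to 4.23%) and 8 of 230 in replicate 2 (3.48%, interval 1.77% to 6.71%), a mean of 1.74% ± 2.46 (SD, n = 2). The values of these starts overlapped each other, and both were near the median of 1.15% over all measured starts. With at least 20 reads in each replicate, both members measured were under 20% in both replicates, as were 91.4% of the 11439 measured starts. Over 80% in both were 0 of the 2 and 2.55% of all measured starts. In a bulk sample, partial methylation of every cell and full methylation of some cells cannot be told apart.

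GDF3 and DPPA3 read as methylated, on very few reads. At GDF3, 7 of 8 reads were methylated in replicate 1 (87.5%, interval 52.9% to 97.8%) and 20 of 23 in replicate 2 (86.96%, interval 67.9% to 95.5%), a mean of 87.2% ± 0.384 (SD, n = 2). At DPPA3, 2 of 2 reads were methylated in replicate 1 (interval 34.2% to 100%) and 23 of 26 in replicate 2 (88.5%, interval 71.02% to 95.997%), a mean of 94.2% ± 8.16 (SD, n = 2). Neither start reached the minimum of 20 reads in replicate 1. The order from low to high was NANOG, SLC2A3, GDF3 and DPPA3. NANOG and SLC2A3 did not differ beyond their spread, and neither did GDF3 and DPPA3, while the intervals of the low and the high pair did not meet in either replicate. No p is given for this order, since the smallest two-sided value of an exact permutation test on 2 pairs is 0.5.

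Starts as poor in CpGs as these are seldom open. Of 1069 other starts with 12 to 18 CpGs, as many as NANOG give or take 3, 9.54% had a peak within 500 bp, and of 991 such starts around the number at SLC2A3 10.2% did. The share was 10.3% for the number at DPPA3 and 12.2% for that at GDF3. Among the 95 measured starts like NANOG that had a peak, the median methylation was 15.7%, and 10.5% of them lay below NANOG. Among the 94 such starts for SLC2A3 the median was 15.9%, and 10.6% of them lay below it. All 1069 other starts around NANOG's CpG number, with or without a peak, had a median of 7 and 21 reads, where NANOG had 64 and 68. All 991 around that of SLC2A3 had a median of 8 and 23, where SLC2A3 had 87 and 230. Read medians of only the measured starts with a peak were not taken, so depth was not compared with open starts. GDF3 had 8 and 23 reads, against medians of 10 and 28 for its CpG number. DPPA3 had 2 and 26, against 8 and 23, so it was below the median in replicate 1, where 10.8% of all starts had fewer reads.

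**Figure D1:**
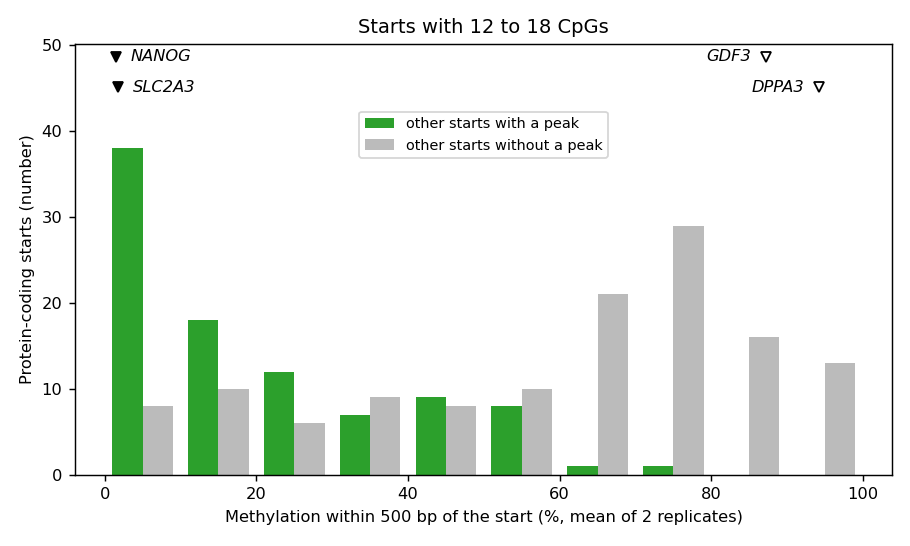
Number of other protein-coding starts (vertical axis) by methylation within 500 bp in percent (horizontal axis, mean of 2 replicates), for 224 measured starts with 12 to 18 CpGs, split by whether a peak overlaps the window. Triangles mark the 4 members, open where a replicate had fewer than 20 reads; NANOG and SLC2A3 sit in the lowest class with 38 of the 94 starts that have a peak, and GDF3 and DPPA3 in the upper classes, which hold 16 and 13 starts without a peak and 0 with one.

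Single CpGs show how the NANOG start reads. Of the 15 CpGs within 500 bp, all had reads in at least 1 replicate, and 13 had no methylated read. The most deeply read, 86 bp before the start and inside the peak, had 0 of 16 and 0 of 21 reads methylated. The next CpG inside the peak, 39 bp before the start, had 0 of 9 and 0 of 6. The CpGs 218 and 165 bp before the start, outside the peak but within the printed sequence, had 0 of 7 and 0 of 4 and 0 of 6 and 0 of 4. The 2 methylated reads, both in replicate 2, fell on CpGs 398 and 305 bp before the start. At SLC2A3, 8 of 15 covered CpGs had no methylated read, and the most deeply read, 59 bp before the start in replicate 1 and 120 bp before it in replicate 2, had 0 of 18 and 0 of 44 reads methylated. At DPPA3 each of the 14 covered CpGs had at least 1 methylated read, and at GDF3 14 of 15 did.

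Around NANOG and SLC2A3 the low methylation reached beyond the start in both directions. In the kilobase before the NANOG start 0 of 57 and 3 of 59 reads were methylated, and in the kilobase after it 0 of 8 and 0 of 12. From 1 to 2 kb before the start the values were 6.15% of 65 reads and 14.6% of 96. Further out they were high: from 3 to 4 kb before the start replicate 2 read 100% of 21, and from 3 to 4 kb into the gene 86.96% of 23. At 1 to 2 kb into the gene the replicates differed, with 0 of 8 and 16 of 50 reads methylated. Around SLC2A3 the low span lay mostly inside the gene. The first 3 kb into it read 0%, 0% and 5.26% in replicate 1 and 0%, 7.69% and 13.9% in replicate 2, and the next kilobase 83.3% of 6 reads and 93.8% of 16. Before the SLC2A3 start the first kilobase read 6.82% and 7.20%, and the 6 methylated reads of replicate 1 there all lay on CpGs 871 to 935 bp from the start. The second kilobase had reads only in replicate 2, 87.5% of 24 methylated. No such low span was seen at DPPA3, where the kilobases before and after the start read 100% of 2 and 85.7% of 14, and 85.7% of 14 and 90.6% of 32. At GDF3 the lowest kilobase within 5 kb was 1 to 2 kb into the gene, at 53.5% of 43 reads and 57.5% of 40, of which 13 and 8 reads fell on a single unmethylated CpG in a peak described further on.

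**Figure D2:**
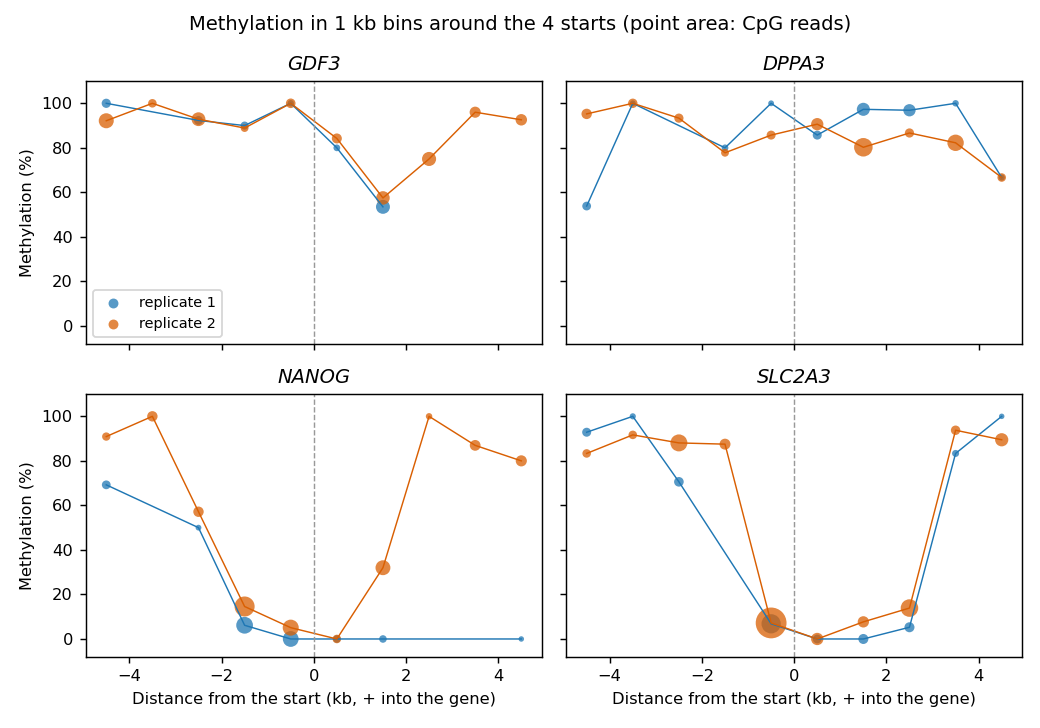
Methylation in percent (vertical axis) in 1 kb bins from 5 kb before to 5 kb after the start of each member (horizontal axis, in kb, positive into the gene). Each point is 1 replicate with reads, and its area grows with the CpG reads in the bin; NANOG and SLC2A3 fall to 0% beside their starts, DPPA3 stays at 53.8% or above in every bin with reads, and GDF3 dips 1 to 2 kb into the gene.

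Of the 8 peaks, 2 lay at or just before NANOG, 2 at or within SLC2A3, 1 within GDF3, 2 within SLC2A14 and 1 between genes. None lay within 16 kb of the DPPA3 start, whose nearest peak was 16528 bp away. The density was 2.79 peaks per 100 kb, against 1.75 on chromosome 12 and 1.67 on the autosomes. The stretch is rich in CpGs, and against listed CpGs the density was not higher: 8 peaks over 5154, and 2332 over 1315968 on chromosome 12. The signal and the q-value of a peak are the authors' own and only rank peaks within this list. Most of the 8 were ordinary in strength: 6 had a signal below the list's median of 541.

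The NANOG start lay in a narrow peak of 168 bp (chromosome 12, 7789254 to 7789421) with its summit 52 bp before the start. Its signal of 375 exceeded that of 31.9% of all peaks, and only 2.29% were narrower. Both of its CpGs were free of methylation, with 0 of 25 reads in replicate 1 (upper bound 13.3%) and 0 of 27 in replicate 2 (upper bound 12.5%). A second and stronger peak lay upstream (7787611 to 7787872), with its summit 1695 bp before the start and a signal of 581, above 53.2% of peaks. Its 6 CpGs read 0 of 44 in replicate 1 and 6 of 65 in replicate 2, or 0% and 9.23%, a mean of 4.62% ± 6.53 (SD, n = 2). Pooled, the 1.38 kb between these peaks was low too, with 3 of 47 reads methylated (6.38%, interval 2.195% to 17.2%) and 7 of 49 (14.3%, interval 7.10% to 26.7%). By the rule for runs given further on, the run over the upstream peak ended at 7788031, and the run over the NANOG start began at 7788919. Few reads lay in this gap, so whether the low methylation is broken there is uncertain. The CpG at 7788524 had 0 of 1 and 1 of 1 reads methylated, and those from 7788830 to 7788876 had no reads.

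SLC2A3 had a similar pair of peaks. The one over its start (7936142 to 7936374) had its summit 84 bp before the start and a signal of 409. Its 8 CpGs read 0 of 81 and 6 of 218, or 0% and 2.75%, a mean of 1.38% ± 1.95 (SD, n = 2). The other (7933314 to 7933507) had its summit 2781 bp into the gene and a signal of 439. Its 4 CpGs read 0 of 12 and 2 of 51, a mean of 1.96% ± 2.77 (SD, n = 2). The 2.63 kb between them held 0 methylated of 33 reads and 5 of 68, or 0% (upper bound 10.4%) and 7.35% (interval 3.18% to 16.1%). Of the 9 spans that the peaks leave, these short ones beside NANOG and SLC2A3 were the lowest, and the other 7 were between 75.9% and 88.6% in each replicate.

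GDF3 was open inside the gene and not at its start. Its peak (7694625 to 7694905) had its summit 986 bp into the gene and its near edge 870 bp from the start, with a signal of 330, above 25.3% of peaks. It held 1 CpG, with 0 of 13 and 0 of 8 reads methylated, which allows up to 22.8% and 32.4%. That CpG stood apart from the methylated ones around it. The gene as a whole, without the peak, read 78.05% of 41 reads and 82.7% of 156.

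The remaining peaks lay on the side of the stretch between NANOG and SLC2A3, where SLC2A14, a close relative of SLC2A3, and the pseudogene NANOGP1 are found. The widest of all 8, and the highest in signal, at 7860008 to 7860756, lay within SLC2A14 and over RPS20P29, a pseudogene of a ribosomal protein gene. Its signal of 1363 exceeded that of 83.4% of peaks. By −log10 q it stood above 57.0% of peaks, and the upstream NANOG peak above 58.1%. Its 10 CpGs read 9 of 150 and 22 of 137, or 6.0% and 16.1%, a mean of 11.03% ± 7.11 (SD, n = 2). Another peak within SLC2A14 (7890675 to 7890917), 279 bp from the outer end of the gene, read 5 of 33 and 3 of 71, or 15.2% and 4.23%. The weakest peak (7905672 to 7905870), with a signal of 213 above only 3.09% of peaks, lay between NANOGP1 and SLC2A3 and held 0 CpGs. SLC2A14 and SLC2A3, and NANOG and NANOGP1, are near-identical copies over parts of their length. How the authors placed reads that fit several copies is not given in the sources used here, so values at these 4 genes are uncertain to that extent.

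**Figure D3:**
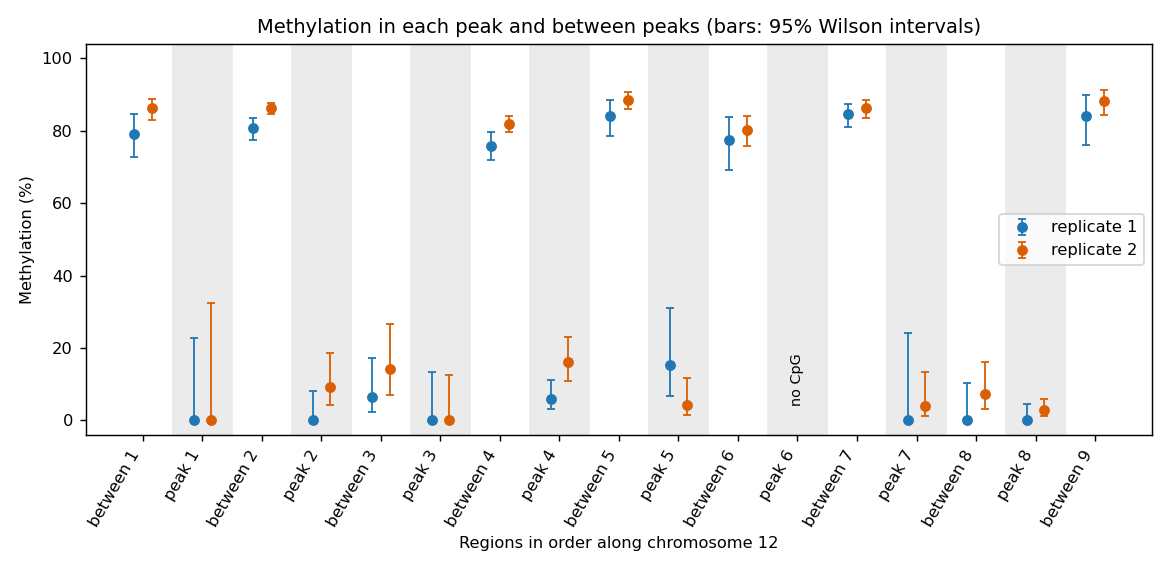
Methylation in percent (vertical axis) in each peak (shaded) and each span between peaks, in order along the chromosome (horizontal axis), in both replicates with 95% Wilson intervals. Peaks with CpGs lie at or below 16.1%, spans 3 and 8 (beside NANOG and SLC2A3) at or below 14.3%, and the other spans at 75.9% or above.

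All 6 peaks with at least 10 reads in each replicate were under 20% in both, where 70.2% of the 40703 such autosomal peaks were. The GDF3 peak, with 8 reads in replicate 2, and the peak without a CpG did not reach that minimum. Pooled over the stretch, reads in peaks were 3.91% methylated in replicate 1 (358 reads) and 6.76% in replicate 2 (577 reads), and reads between peaks 78.1% and 83.95%. The difference was −75.7 ± 2.12 percentage points (SD, n = 2), which exceeded the spread between replicates. On chromosome 12 the same difference was −62.3 ± 6.30 points and on the autosomes −62.4 ± 5.85 (SD, n = 2), so the stretch was more methylated between its peaks, with 81.03% ± 4.13 against 65.1% ± 6.76 on chromosome 12. Its replicate values of 78.1% and 83.95% lay above the 60.3% and 69.9% of chromosome 12. Peaks took 13.5% and 8.62% of the reads in the stretch and 49.5% and 35.96% on chromosome 12. The difference in the stretch was −46.2 points when only CpGs with at least 5 reads were counted. This count was not made on chromosome 12 or the autosomes, so the comparison with them was not tested at like depth.

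A two-sided Fisher's exact test set replicate 1 against replicate 2 in each of the 40703 peaks, with Benjamini-Hochberg adjustment over all of them. It called 7.89% of all peaks, and 0 of the 6 here. At an unadjusted p under 0.05 it took 20.2% of all peaks and 1 of the 6, the SLC2A14 peak over RPS20P29 (p = 0.00734, adjusted p = 0.0750 by Fisher's exact test, 10.1 points higher in replicate 2). With only the most deeply read CpG of each peak, so that no read counts more than once, the same test took 0 of the 4 peaks left, also before adjustment. This could not decide whether the difference at the SLC2A14 peak holds with each read counted once. Its most deeply read CpG had 0 of 23 and 1 of 21 reads methylated, and those over the NANOG and SLC2A3 starts had none. Another CpG of the SLC2A14 peak read 1 of 16 and 6 of 11 and was not tested alone. Replicate 2 was higher in 4 of the 6, lower in 1 and equal in 1.

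Runs of unmethylated CpGs were then sought without regard to peaks, as at least 5 neighbouring covered CpGs, each under 50% over both replicates, with at least 20 reads in all. The stretch held 10 such runs, or 3.49 per 100 kb against 1.79 on chromosome 12. The stretch is richer in CpGs, with 1.80 per 100 bp against 0.992 on the autosomes, and per 1000 listed CpGs it held 1.94 runs against 1.82 on chromosome 12. Of the 10, 7 overlapped a peak, where 58.1% of the 2391 runs on chromosome 12 did. The longest began inside SLC2A3 and passed its start (7934223 to 7936611, 2389 bp), with 10 of 397 reads methylated over 48 covered CpGs. The next longest passed the NANOG start (7788919 to 7791009, 2091 bp), with 4 of 145 reads methylated over 22 covered CpGs. Replicate 1 covered 12 of its 29 listed CpGs and none past 7789665, so its far part within NANOG rests on replicate 2 only. The weakest peak, itself without a CpG, lay in a run of 1500 bp (7905292 to 7906791) in which 4 of 32 and 13 of 55 reads were methylated, or 12.5% and 23.6%.

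The run without a listed peak that had the most reads lay 31.1 kb before the NANOG start. It was found between CLEC4C, a lectin gene of dendritic cells, and NANOGNB, a homeobox gene next to NANOG (7758060 to 7758631, 572 bp). There 1 of 53 reads was methylated in replicate 1 (1.89%, interval 0.334% to 9.94%) and 1 of 34 in replicate 2 (2.94%, interval 0.521% to 14.9%). It had 4.82 and 3.09 reads per listed CpG, where the peaks with CpGs had 3 to 15 in replicate 1 and 8 to 27.25 in replicate 2. Depth in replicate 2 was thus below that of each of these peaks, and 7 of its 11 CpGs had reads. The nearest peak was 28980 bp away. Along the stretch in 10 kb tiles, the tile that holds this run read 45.6% of 125 reads in replicate 1 and 80.5% of 334 in replicate 2, and the run supplied 53 and 34 of these reads. The other 2 runs without a peak rested on few reads: 22 reads within NANOG and 34 near the SLC2A14 start, where replicate 1 read 7 of 7 methylated and replicate 2 read 5 of 27.

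**Figure D4:**
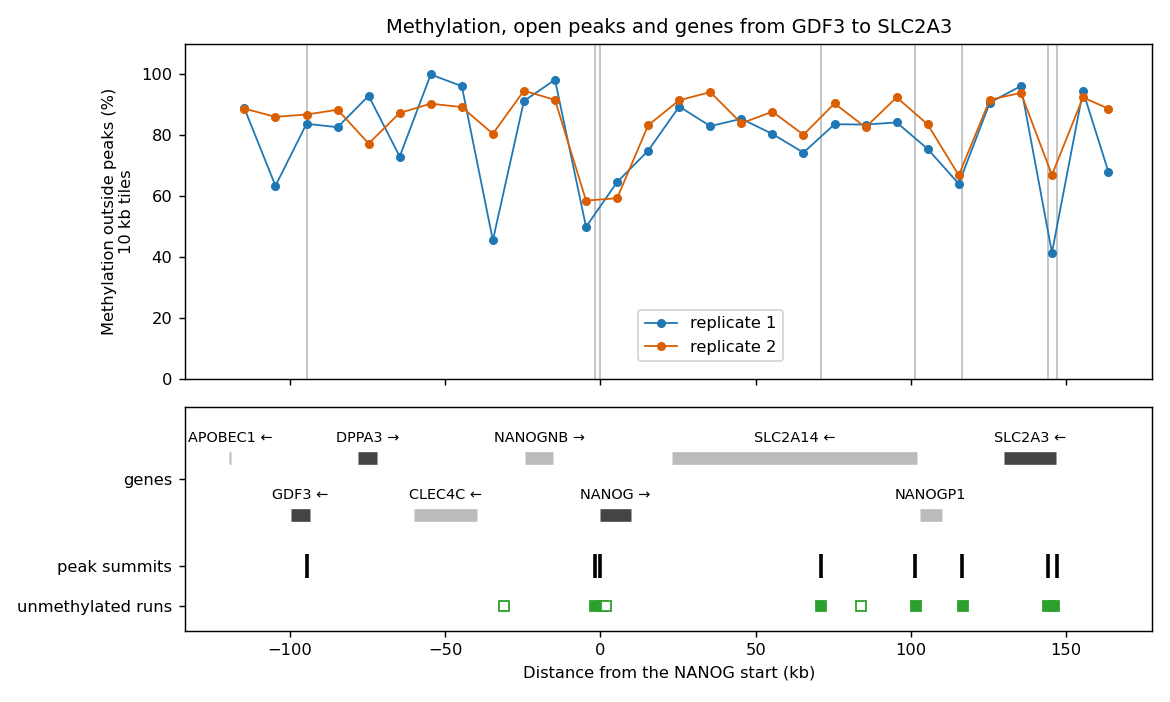
Upper panel: methylation outside peaks in percent (vertical axis) in 10 kb tiles, in both replicates, by distance from the NANOG start in kb (horizontal axis); grey lines mark peak summits. Lower panel: genes (members dark, arrows show direction), peak summits, and runs of unmethylated CpGs, filled where a peak overlaps; the tiles next to NANOG, near 115 kb and at the SLC2A3 start are low in both replicates, and the tile 34.6 kb before NANOG is low in replicate 1.

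Outside their peaks the bodies of the genes were methylated, NANOG the least. NANOG read 55.4% of 83 reads and 56.6% of 166, a mean of 56.02% ± 0.852 (SD, n = 2). SLC2A3 read 72.8% of 158 and 77.3% of 400, GDF3 78.05% and 82.7%, and DPPA3 92.6% of 95 and 76.5% of 226, where the replicates did not overlap in their intervals (85.6% to 96.4% and 70.6% to 81.6%). The neighbours CLEC4C (93.2% ± 3.86), NANOGNB (95.2% ± 0.365), SLC2A14 (83.7% ± 3.94) and NANOGP1 (90.8% ± 3.34) were higher than NANOG and SLC2A3 in both replicates (SD, n = 2). With the first 2 kb left out, SLC2A3 rose to 90.4% ± 1.25 and NANOG to 71.8% ± 4.49 (SD, n = 2). DPPA3 without its first 2 kb was at 90.9% of 44 reads and 69.9% of 113.

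The neighbours' starts read as methylated as well, most on very few reads. CLEC4C read 5 of 5 and 19 of 20, NANOGNB 4 of 4 and 16 of 16, and APOBEC1, an RNA-editing deaminase whose gene reaches into the stretch, 5 of 5 and 7 of 7. None of these starts reached the minimum of 20 reads in replicate 1. SLC2A14 differs from these by its CpG-rich start, with 73 CpGs within 500 bp. It read 28 of 32 in replicate 1 (87.5%, interval 71.9% to 95.03%) and 77 of 105 in replicate 2 (73.3%, interval 64.2% to 80.9%), and had no peak within 500 bp. Of 1038 other measured starts with 70 to 76 CpGs, 14 (1.35%) were over 50% in both replicates. All other starts with this CpG number had a median of 720 and 1015 reads, where SLC2A14 had 32 and 105, and 83.2% had a peak. The outer end of the SLC2A14 interval, beyond the start in the table, read 32.2% of 59 reads and 31.2% of 125. The lower and upper ends of NANOGP1 read 7 of 10 and 7 of 19, and 0 reads and 27 of 27.

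The start of NANOG, at 1.47%, was close to the median of other pluripotency genes. Of 20 pluripotency genes listed, 13 had a start in the table, all 13 were measured, 11 stayed under 20% in each replicate, and a peak lay within 500 bp of 10. Over all starts these shares were 91.4% and 61.8%. Their median was 1.22%, with SOX2, the partner of OCT4, at 1.19% ± 0.857, DPPA4 at 0.526% ± 0.744 and CRIPTO, a co-receptor for NODAL and GDF ligands, at 0.685% ± 0.969 (SD, n = 2). CRIPTO and DPPA4 are also poor in CpGs, with 10 and 22 within 500 bp, and each had a peak. The exceptions were DNMT3B, with 11 CpGs, at 46.8% ± 4.08 and DPPA2 at 65.4% ± 8.72 (SD, n = 2), both with a peak. Of the 14 glucose transporters 12 had a start in the table and 8 were measured. Of these 8, SLC2A3 and 6 others stayed under 20% in each replicate, and SLC2A14 did not. SLC2A3 was 1 of 6 with a peak. SLC2A1, the widely expressed GLUT1, was at 1.04% ± 0.512 and SLC2A2, the transporter of liver and pancreas, had 6 CpGs and read 1 of 1 and 6 of 6 methylated.

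A search for other starts with a profile like that of a member gave no result. It needed 3 of 5 bins of 400 bp with at least 10 reads in each replicate, and NANOG had 2, SLC2A3 had 1, and GDF3 and DPPA3 had 0.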

How the data were processed

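The authors deposited, for each replicate, a CpG table holding a methylation fraction and a read count, and 1 peak list for the group with a capped score, a signal, −log10 of p and q and the summit. The build hg38, Trim Galore and Genrich are named per the submitters' processing notes. Mapper and methylation caller: not given in the sources used here. Methylated reads were the fraction times the count, rounded. Region values divide summed methylated reads by summed reads, per replicate, before the mean and SD are taken. All 569950 CpGs of the promoter sequences on the autosomes matched a listed CpG, counting from 1. Starts came from RefSeq's promoter table (GRCh38.p14; 15101 of 19122 protein-coding genes, with SLC2A3 added), and that of SLC2A3 is the upper end of its interval. Starts needed 20 reads, peaks 10 and spans 20 in each replicate. Fisher's exact test was tested on simulated data. Genes named are the 4 members, genes and peaks of the stretch, and members of 2 lists. Members, lists, motifs and the rule for runs were chosen with earlier results of these data known. Python 3.11.15, numpy 2.4.6, pandas 2.3.3 and scipy 1.17.1 were used.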

Additional observations from a re-analysis of the deposited data

How the results depend on the processing

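Alternatives covered the window, the weighting, read minimums, altered CpGs, the borders, the peaks used and each replicate left out. The difference between peaks and the spans between them, the only result that could change sign, did not. Leaving out a replicate moves a mean of 2 by less than their SD whatever the values, so it is no check here. Of the other alternatives for methylation values, 20 moved the main ones by less than the SD between replicates and 8 by more, and 18 moved single peaks by less, an SD that 2 replicates estimate poorly. The GDF3 start was at 80.4% within 250 bp, 90.3% within 1000 bp and 92.2% with each CpG counted once, and SLC2A3 at 6.14% within 1000 bp. The difference between peaks and the spans between them was −73.4 points without the extension, −78.4 without CpGs within 500 bp of a peak, −68.5 with peaks above the median q-value only and −46.2 with CpGs of at least 5 reads. With peaks above the median q-value, 1 of 3 peaks differed between replicates by Fisher's exact test (the SLC2A14 peak over RPS20P29, adjusted p = 0.0486, against 0.0604 with at least 30 reads), fewer peaks being tested. With only the CpG with most reads in each peak 0 of 4 differed, and the lowest adjusted p was 1. At the SLC2A14 peak that CpG had 0 of 23 and 1 of 21 reads methylated, too few to test the difference. DPPA3 within 250 bp had no read in replicate 1, and no CpG at GDF3 or DPPA3 had 5 reads in both replicates, so these gave no value. Depth limits GDF3 and DPPA3 most. No paired analysis was possible because there is 1 group.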
